A study of Rattus norvegicus with 15 samples.

Results

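The C/EBP, FOXA and related liver transcription factors were described across normal, cirrhotic and cancerous rat liver. A probe belonged to the set when its only platform gene symbol started with Cebp, Foxa or Hnf1, or was Onecut1, Hhex or Dbp. Of 3757 probes, 11 met this rule, and each stood for a different gene. They were 5 C/EBP genes (Cebpa, Cebpb, Cebpd, Cebpe and Cebpg), 3 FOXA genes (Foxa1, Foxa2 and Foxa3), and Onecut1, Hhex and Dbp. The number of probes with a symbol starting with Hnf1 was 0, so HNF1 is not described. Total RNA came from liver of male Fischer344 rats, with the strain of control 1 labelled Fischer. Normal liver after 70 weeks of basal diet gave the 5 control samples. A choline-deficient, L-amino acid-defined diet, also for 70 weeks, gave the other 10, of which 5 were hepatocellular carcinomas and 5 were cirrhotic, noncancerous tissue around a carcinoma. The labels give no age and tie no sample to a named animal. Whether equal numbers mark 1 rat, or a group holds several rats, is therefore unknown, and p-values measure only the spread between these samples.

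These factors bind promoters and enhancers of hepatocyte genes in combination, and together with HNF1 and HNF4 they set and maintain the hepatocyte programme. C/EBP proteins are basic leucine zipper factors that pair with one another. In liver, C/EBPα is known for metabolic genes and restraint of proliferation, and C/EBPβ and C/EBPδ for the acute phase response to interleukin-6 and interleukin-1. FOXA proteins are forkhead factors that open chromatin during liver development.

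RefSeq promoters (assembly GRCr8) were found for 8 of the 11 members, and those of Cebpb and Dbp are shown because these genes had groups that did not overlap. Each run is the 250 bases before the annotated start, 5′ to 3′ on the coding strand. Capitals mark, on either strand, a TATA box with the letters TATAAA, the cAMP response element half-site TGACG, or a box with the letters CCAAT. The Cebpb run is chr3:176816755-176817004 (+) and the Dbp run is chr1:105312006-105312255 (+).
Cebpb: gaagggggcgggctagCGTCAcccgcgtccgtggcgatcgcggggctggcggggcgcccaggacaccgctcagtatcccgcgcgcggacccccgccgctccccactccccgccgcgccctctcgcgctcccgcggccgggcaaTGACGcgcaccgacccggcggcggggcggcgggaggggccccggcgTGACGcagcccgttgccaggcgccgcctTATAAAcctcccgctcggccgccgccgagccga
Dbp: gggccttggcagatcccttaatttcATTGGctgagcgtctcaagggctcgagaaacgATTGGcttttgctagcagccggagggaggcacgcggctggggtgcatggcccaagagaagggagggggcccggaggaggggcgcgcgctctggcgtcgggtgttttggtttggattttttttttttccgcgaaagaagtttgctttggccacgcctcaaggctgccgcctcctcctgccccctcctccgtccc

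The Cebpb window held 3 copies of TGACG, at -234 to -230, -107 to -103 and -61 to -57 from the start, and a TATAAA at -33 to -28. TGACG occurred in 18.2% of the 33469 RefSeq rat windows of this length, and Cebpb was the 1 member of 8 that held it. The Dbp window held 2 copies of CCAAT on the reverse strand, at -225 to -221 and -193 to -189. CCAAT occurred in 34.0% of all windows and in 4 of the 8 members' windows. TATAAA occurred in 12.9% of all windows and in 4 of the 8. The letters TTGCNNAA (a C/EBP core, in 9.22% of all windows), TGTTTAC (a FOXA core, in 3.21%), CACGTG (an E-box, in 5.59%) and TTATGNAA (a D-box, in 3.28%), and the HNF1 site (in 0.105%), were in 0 of the 8, on either strand. No 2 of the marked matches overlap in either window.

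The values are ratios in which 1 is a probe's own median over the 15 arrays, so they compare samples and hold no level. The labelled tissue could therefore not be checked by the presence or absence of markers. All values below are log2 of the ratio after quantile normalization over the arrays, unless named as deposited. Precision is limited by the number of arrays, and over all probes the 95% interval of a difference reached a median of 1.27 to either side. Deposited ratios stopped at a lower limit of 0.01, and noncancerous 1 held 209 values there and control 1 held 229. Among the members, Cebpa and Foxa1 were at this limit in noncancerous 1, where the normalization set both to -2.46. Ratios drifted along the probe numbering of the arrays, and the drift differed between groups. The main differences are therefore also given after a running median, over 50 probes on either side, was subtracted from each array. In bulk tissue, fewer cells of a type and less RNA per cell cannot be told apart.

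No probe of the 3757 passed a limma adjusted p of 0.05 in any comparison, which is 0% called (smallest adjusted p 0.307, 0.459 and 0.224), and the members' smallest adjusted p was 0.332. Between noncancerous and control liver 362 probes (9.64%) had an unadjusted limma p under 0.05, among them Cebpb. Between carcinoma and control liver 278 probes (7.4%) did, among them Hhex and Dbp. Between carcinoma and noncancerous liver 497 probes (13.2%) did, among them Cebpa. Every difference below is therefore a description of these samples, read beside these shares.

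**Figure D1:**
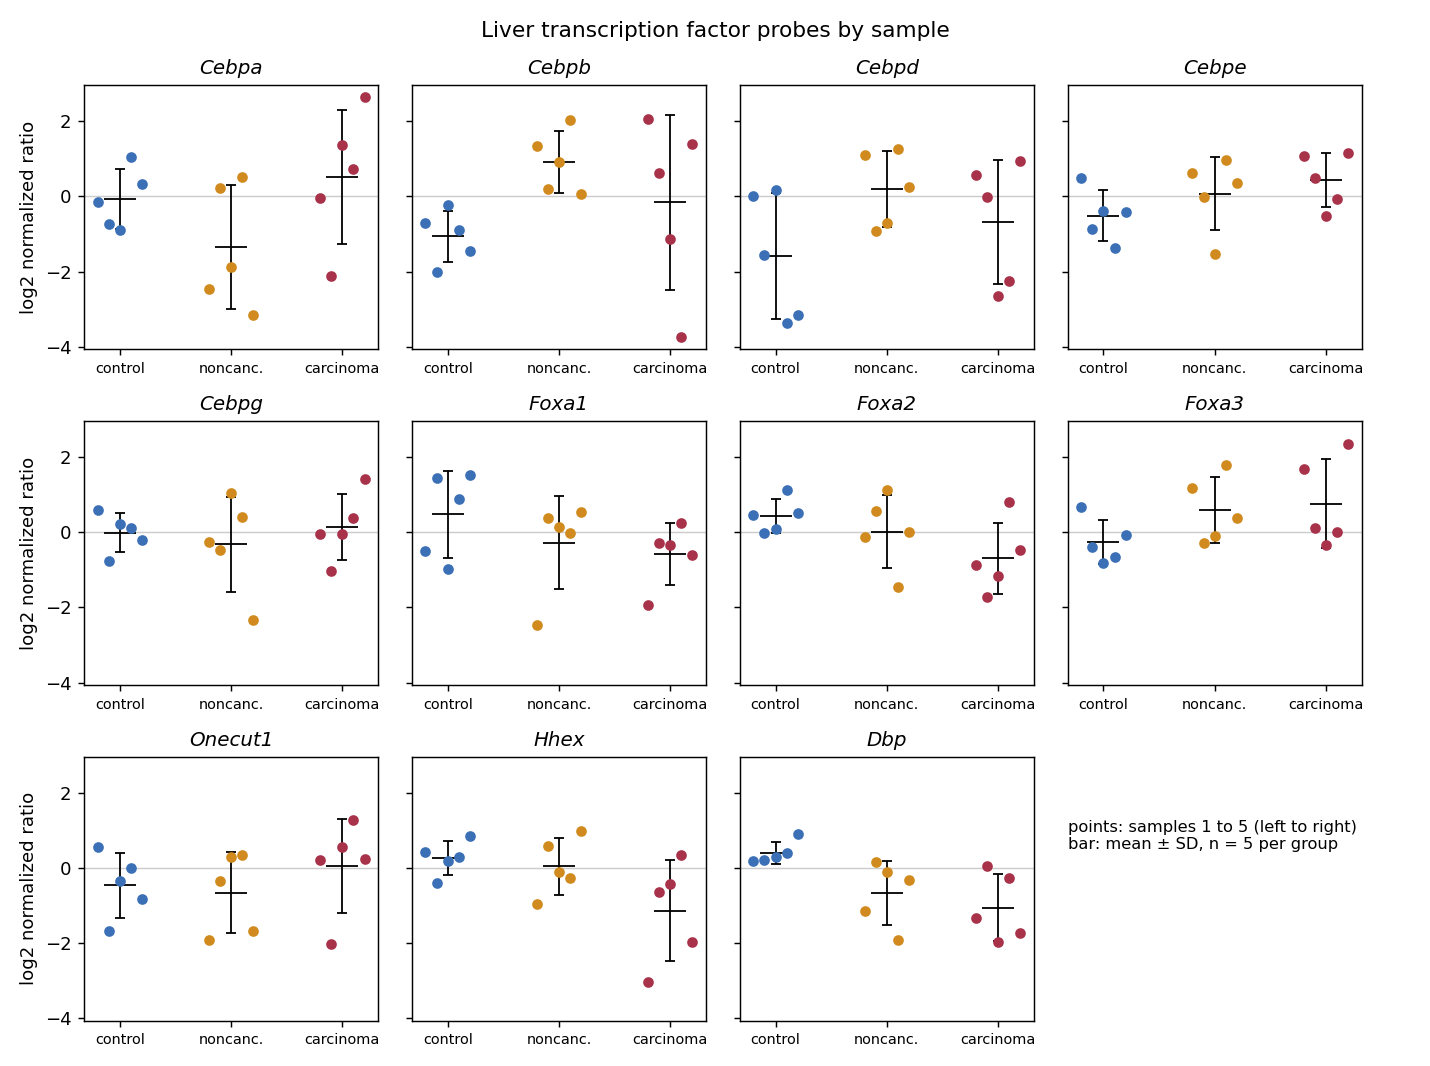
Log2 normalized ratio of each of the 11 member probes (y axis) in control, noncancerous and carcinoma samples (x axis, 5 points per group in the order of sample numbers), with the mean ± SD as bars. Cebpb lay above every control sample in all 5 noncancerous samples, Dbp lay below every control sample in all 10 other samples, and Cebpb in carcinoma spanned -3.75 to 2.07. With the running median subtracted, these groups overlapped with control for both genes.

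Cebpb, the interleukin-6-responsive C/EBP factor, had a log2 ratio in control 1 to 5 of -0.70, -2.01, -0.24, -0.91 and -1.44. In noncancerous 1 to 5 it was 1.35, 0.19, 0.93, 2.04 and 0.07. Noncancerous 1 and 4 were the highest of these, and the lowest noncancerous sample lay above the highest control sample. The means were 0.92 ± 0.82 (SD, n = 5) in noncancerous and -1.06 ± 0.69 (SD, n = 5) in control liver. The difference was 1.98 (95% interval 0.36 to 3.60, limma adjusted p = 0.421), and an exact two-sided permutation test gave p = 0.00794, the smallest this design allows. Any probe whose groups do not overlap gives this p, so it restates the separation. Groups without overlap and higher in noncancerous liver were found for 0.665% of all probes. The groups were also without overlap on the deposited ratios, at 1 to 4.09 in noncancerous and 0.177 to 0.900 in control samples.

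The running median at the Cebpb probe was itself 0.95 higher in noncancerous than in control samples. With it subtracted, the difference of Cebpb was 1.03 (-0.34 to 2.40, limma adjusted p = 0.996; exact permutation p = 0.0556) and the groups overlapped. Control 4 then stood at -0.10, above noncancerous 5 at -0.67.

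In carcinoma 1 to 5 the log2 ratio of Cebpb was 2.07, 0.62, -1.12, -3.75 and 1.39. The group held the highest and the lowest Cebpb value of all 15 samples. Its SD of 2.33 was larger than that of 98.8% of probes in the same group, where the median SD was 0.91. Carcinoma differed from control liver by 0.90 (-0.72 to 2.52, limma adjusted p = 0.804), a value that was 0.34 without carcinoma 1, 0.52 without carcinoma 5 and 1.80 without carcinoma 4. It was 1.41 on the deposited ratios. It differed from noncancerous liver by -1.07 (-2.69 to 0.55, limma adjusted p = 0.543), by -0.18 without carcinoma 4 and by -1.63 without carcinoma 1. A floor at the 10th percentile gave -0.61. With the running median subtracted these differences were 0.80 and -0.23.

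Cebpd, the other acute phase C/EBP factor, lies 38 probe numbers from Cebpb. Its log2 ratio in control 1 to 5 was 0.01, -1.55, 0.17, -3.36 and -3.15. In noncancerous 1 to 5 it was 1.11, -0.93, -0.70, 1.28 and 0.24. In carcinoma 1 to 5 it was 0.57, -0.02, -2.64, -2.25 and 0.95. Noncancerous 1 and 4 and carcinoma 1 and 5 were high for Cebpd as they were for Cebpb, and all 3 groups overlapped. Noncancerous differed from control liver by 1.78 (-0.27 to 3.82, limma adjusted p = 0.554), by 0.97 after the subtraction and by 1.03 with a floor at the 10th percentile. Carcinoma differed from control liver by 0.90 (-1.14 to 2.94). That value was 0.45 without control 4, 0.51 without control 5, 0.59 without carcinoma 1, 0.49 without carcinoma 5 and 1.39 without carcinoma 3, and 0.56 with the floor.

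Cebpe, a C/EBP factor known from granulocyte development, had means of -0.51 ± 0.69, 0.08 ± 0.98 and 0.43 ± 0.72 (SD, n = 5 each) in control, noncancerous and carcinoma samples. The difference between carcinoma and control liver was 0.94 (-0.16 to 2.04, limma adjusted p = 0.715), and 0.91 after the subtraction. Cebpg, a short C/EBP protein that lacks a strong activation domain and pairs with other members, had means of -0.01 ± 0.51, -0.32 ± 1.27 and 0.14 ± 0.88 in the same order. Its 3 differences lay between -0.32 and 0.46, and the groups overlapped in each comparison. The noncancerous mean of Cebpg rested on noncancerous 5 at -2.33, without which the difference from control liver was 0.19 in place of -0.32.

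Cebpa, the C/EBP factor of the resting hepatocyte, had log2 ratios in control 1 to 5 of -0.13, -0.72, -0.89, 1.06 and 0.34. In noncancerous 1 to 5 they were -2.46, 0.23, -1.88, 0.52 and -3.15. In carcinoma 1 to 5 they were -0.03, -2.12, 1.38, 0.74 and 2.65. Noncancerous 1, 3 and 5 and carcinoma 2 were the low samples, and the groups overlapped in every comparison. Carcinoma differed from noncancerous liver by 1.87 (0.19 to 3.55, limma adjusted p = 0.332; exact permutation p = 0.127), and by 1.28 (-0.37 to 2.93) with the running median subtracted. Noncancerous differed from control liver by -1.28 (-2.96 to 0.40, limma adjusted p = 0.596), by -0.58 after the subtraction, by -0.83 without noncancerous 5 and by -0.65 with a floor at the 10th percentile. Carcinoma differed from control liver by 0.59 (-1.09 to 2.27), which was 0.06 without carcinoma 5, 0.38 without carcinoma 3, 0.39 without control 3, 1.25 without carcinoma 2 and 0.89 with each array scaled to its median.

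**Figure D2:**
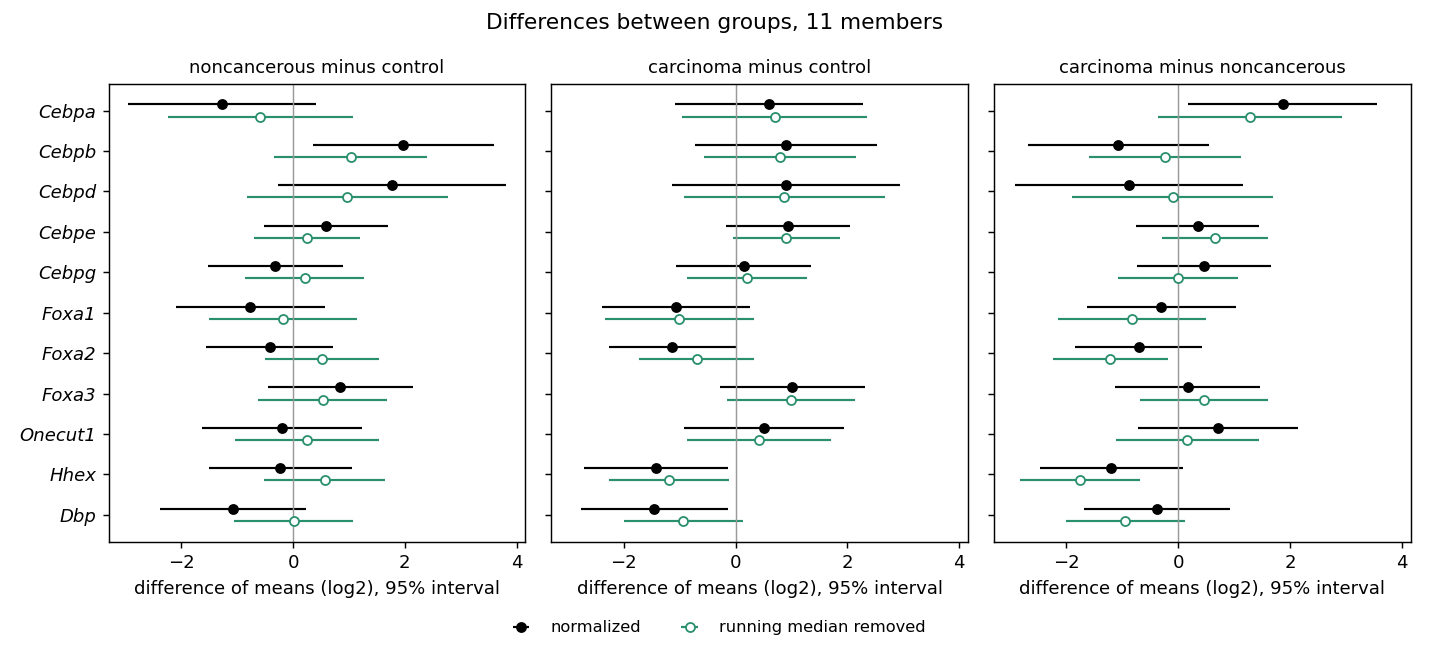
Difference of group means on the log2 scale (x axis) for the 11 members (y axis) in the 3 comparisons, with 95% limma intervals, on normalized values (filled) and after subtraction of the running median (open). The interval of Cebpb between noncancerous and control liver lies above 0 on normalized values (0.36 to 3.60) and includes 0 after the subtraction (-0.34 to 2.40).

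The 3 FOXA genes had differences of both signs between carcinoma and control liver, with 0 past the adjusted threshold. Foxa2, the FOXA factor tied to bile acid and glucose genes, had log2 ratios in control 1 to 5 of 0.47, -0.02, 0.10, 1.14 and 0.52. In noncancerous 1 to 5 they were -0.13, 0.58, 1.12, -1.46 and -0.0038. In carcinoma 1 to 5 they were -0.88, -1.72, -1.17, 0.80 and -0.47. Of the carcinomas, 4 lay below every control sample, and carcinoma 4 lay among them. Carcinoma differed from control liver by -1.13 (-2.26 to 0.0037, limma adjusted p = 0.656; exact permutation p = 0.0476) and by -0.70 (-1.72 to 0.33) with the running median subtracted. Carcinoma differed from noncancerous liver by -0.71 (-1.84 to 0.42, limma adjusted p = 0.566) and by -1.22 (-2.24 to -0.19, limma adjusted p = 0.463) after the subtraction. The value before it was -0.43 without noncancerous 3, -0.45 without carcinoma 2, and -1.08 without carcinoma 4 or without noncancerous 4.

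Foxa1, a FOXA factor also active in other gut-derived tissues, had means of 0.48 ± 1.15, -0.28 ± 1.24 and -0.58 ± 0.82 (SD, n = 5 each) in control, noncancerous and carcinoma samples. Carcinoma differed from control liver by -1.06 (-2.39 to 0.27, limma adjusted p = 0.723), and by -1.003 after the subtraction. Noncancerous differed from control liver by -0.76 (-2.09 to 0.56), which was -0.22 without noncancerous 1, the sample at the lower limit, and -0.50 without control 5. It was -1.46 on the deposited ratios and with each array scaled to its median, and -0.18 after the subtraction. Between carcinoma and noncancerous liver the sign depended on the scaling: -0.30 after quantile normalization, 0.54 on the deposited ratios and 0.56 with each array scaled to its median. It was -0.82 with the running median subtracted, -0.55 with array quality weights, and ran from -0.84 to 0.0394 when 1 sample was left out.

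Foxa3, a FOXA factor that mouse liver can form without, had log2 ratios in carcinoma 1 to 5 of 1.68, 0.12, -0.34, 0.00 and 2.34. Carcinoma 1 and 5 stood apart from the other 3, with deposited ratios of 5.28 and 8.57. The range was -0.81 to 0.67 in control and -0.30 to 1.79 in noncancerous samples, and all groups overlapped. The carcinoma mean lay above that of control liver by 1.01 (-0.28 to 2.31, limma adjusted p = 0.727), 0.62 without carcinoma 5. Noncancerous differed from control liver by 0.84 (-0.45 to 2.14), by 0.53 with the running median subtracted and by 0.55 without noncancerous 4.

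Among the homeodomain factors, Onecut1 (HNF6), which is needed for bile duct formation, had means of -0.46 ± 0.86, -0.66 ± 1.08 and 0.06 ± 1.24 (SD, n = 5 each) in control, noncancerous and carcinoma samples. The 3 groups overlapped, and the largest of its differences was 0.71 (-0.72 to 2.14, limma adjusted p = 0.658) between carcinoma and noncancerous liver. It was 1.69 on the deposited ratios and 1.71 with each array scaled to its median, where noncancerous 1 entered with a ratio of 0.0133, just above the lower limit. It was 1.23 without carcinoma 2, 0.40 without noncancerous 1, 0.46 without noncancerous 5, 0.41 without carcinoma 4, and 0.17 with the running median subtracted. Noncancerous and control liver differed by -0.20 in Onecut1 after quantile normalization and by -0.93 on the deposited ratios.

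Hhex, which is needed to form the liver bud, had log2 ratios in control 1 to 5 of 0.44, -0.40, 0.20, 0.29 and 0.87. In noncancerous 1 to 5 they were -0.96, 0.59, -0.09, -0.25 and 0.98. In carcinoma 1 to 5 they were -3.03, -0.62, -0.43, 0.34 and -1.96. Carcinoma 1 and 5 were the lowest samples. Carcinoma 2 and 3 lay below every control sample but within the noncancerous range, and carcinoma 4 lay within the range of both other groups. Carcinoma differed from control liver by -1.42 (-2.70 to -0.13, limma adjusted p = 0.645; exact permutation p = 0.0476) and by -1.19 (-2.27 to -0.11) with the running median subtracted. Without carcinoma 1 the difference was -0.94.

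Hhex differed between carcinoma and noncancerous liver by -1.19 (-2.48 to 0.09, limma adjusted p = 0.405), by -0.72 without carcinoma 1 and by -0.77 with a floor at the 10th percentile. With the running median subtracted the difference was -1.75 (-2.83 to -0.68, limma adjusted p = 0.455; exact permutation p = 0.00794). The values were then -2.35, -1.23, -0.71, -0.60 and -1.73 in carcinoma 1 to 5 and -0.33, 0.64, 0.00, 0.62 and 1.22 in noncancerous 1 to 5. The groups no longer overlapped on that scale, where 0.612% of all probes were without overlap and lower in carcinoma. Hhex, like every other member, kept its side of 0 in both comparisons of carcinoma, with and without the subtraction. Its adjusted p missed the threshold each time.

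Dbp, the clock-driven basic leucine zipper factor, had the smallest SD of the members in control liver, 0.29, smaller than for all but 2.02% of probes. Its log2 ratio in control 1 to 5 was 0.20, 0.22, 0.31, 0.39 and 0.90. In noncancerous 1 to 5 it was -1.15, 0.15, -0.09, -1.92 and -0.32. In carcinoma 1 to 5 it was -1.34, 0.05, -1.97, -0.27 and -1.72. All 10 samples of the choline-deficient diet lay below the lowest control sample, noncancerous 2 by the smallest margin. The deposited ratios showed the same, at 1.13 to 1.60 in control, 0.302 to 1.05 in noncancerous and 0.221 to 1.02 in carcinoma samples. The share of all probes with all 10 samples below control was not counted.

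Dbp differed by -1.07 (-2.38 to 0.24, limma adjusted p = 0.565) between noncancerous and control liver and by -1.45 (-2.76 to -0.14, limma adjusted p = 0.645) between carcinoma and control liver. These comparisons share the control samples. The exact permutation p was 0.00794 in each, the smallest possible, which restates that the groups did not overlap. Groups without overlap and lower than control were found for 0.985% of probes in noncancerous liver and 0.825% in carcinoma. The running median at Dbp was 1.08 lower in noncancerous than in control samples, and with it subtracted the difference was 0.0094 (-1.06 to 1.07). For carcinoma against control liver the difference was then -0.93 (-1.997 to 0.13, limma adjusted p = 0.592; exact permutation p = 0.0397), and the groups overlapped. Between carcinoma and noncancerous liver it was -0.38 (-1.69 to 0.93) on normalized values and -0.94 (-2.01 to 0.12) after the subtraction, and the former ran from -0.70 without noncancerous 4 to -0.15 without carcinoma 3. The labels give no time of day for the samples.

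**Figure D3:**
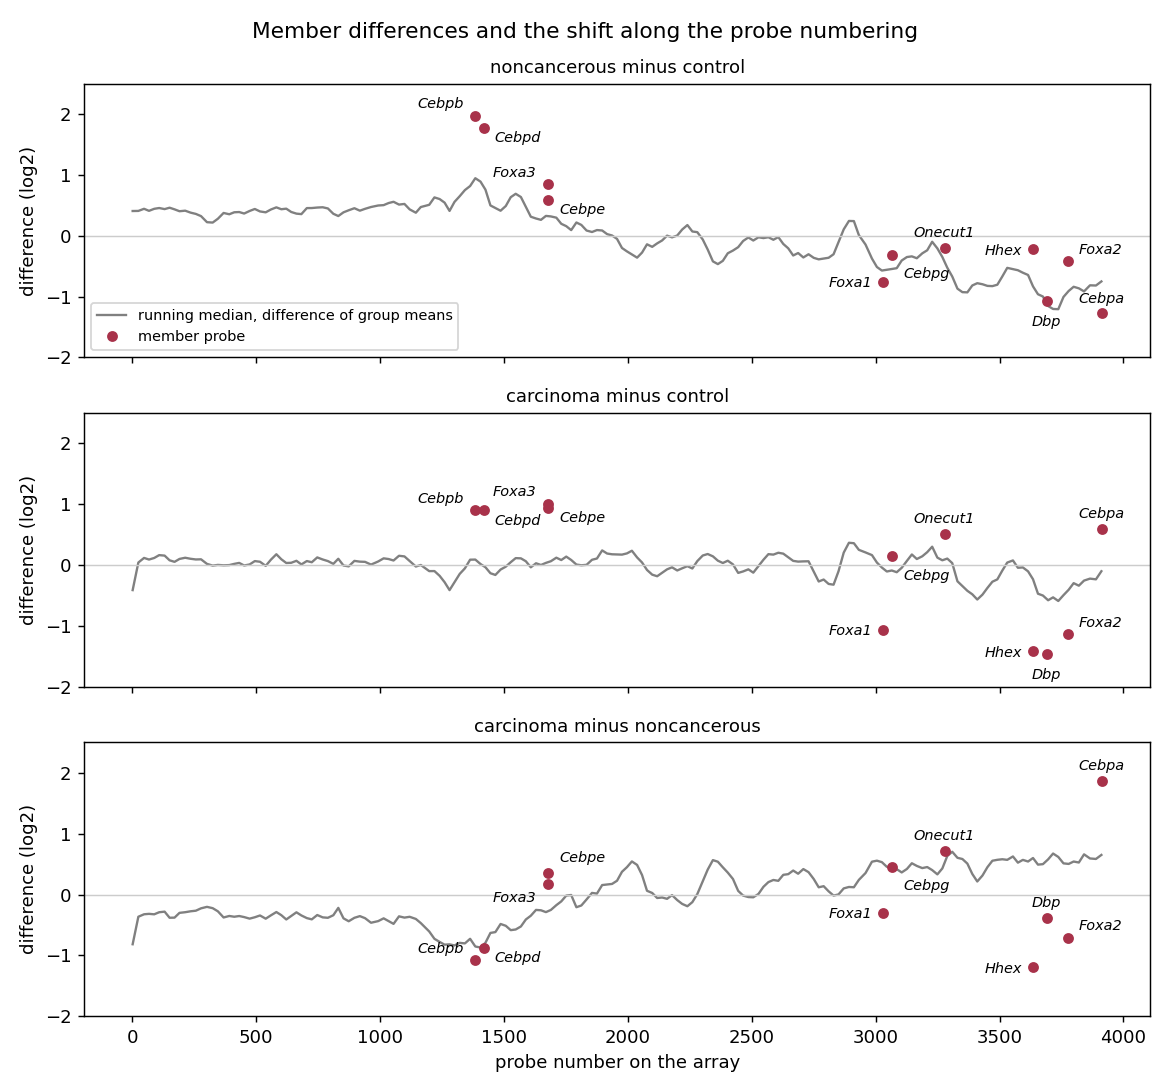
Difference of group means on the log2 scale (y axis) against the probe number on the array (x axis) for the running median over 50 probes on either side (line) and for the 11 members (points), in the 3 comparisons. Between noncancerous and control liver the line stands at 0.95 at Cebpb and at -1.08 at Dbp, and it is closer to 0 at both between carcinoma and control liver (0.11 and -0.52).

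The sign of the members' differences between noncancerous and control liver divided at 1 place in the numbering. The 4 members numbered 1381 to 1678 (Cebpb, Cebpd, Foxa3 and Cebpe) differed by 1.98, 1.78, 0.84 and 0.59, falling in the order of their numbers. The 7 numbered 3030 to 3912 differed by -1.28 to -0.20, in no such order. The running median at the first 4 differed by 0.31 to 0.95 and at the other 7 by -1.08 to -0.45. In all, 4 of the 11 members lay above 0 with a median of -0.23, beside 50.7% of all probes with a median of 0.02. After the subtraction 9 of 11 lay above 0, with a median of 0.26, beside 50.0% of all probes. For carcinoma against control liver 7 of 11 lay above 0 both before and after it (medians 0.51 and 0.42), beside 50.1% of all probes before it. Against noncancerous liver, 5 of 11 did in carcinoma both before and after it (medians -0.30 and -0.10), beside 49.3% of all probes before it. For Onecut1, Hhex, Foxa2, Cebpg and Dbp the difference between noncancerous and control liver was below 0 before the subtraction and above 0 after it.

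Of the 55 pairs of members, 14 had a Pearson correlation over the 15 samples with a permutation p under 0.05 after adjustment over the pairs. The permutations moved samples freely across the groups, so these p-values account for neither the groups nor the drift. Of these 14, 11 were positive and 3 negative, and the weakest had an r of 0.62 in size. An r of at least that size was found in 25.5% of the members' pairs and in 6.02% of all pairs of probes with 1 gene symbol. That cut-off was taken from the members' own pairs, so the shares carry no test. With the running median subtracted, the only members' pairs of that size were Foxa3 and Cebpe (0.79), Cebpd and Cebpe (0.72), and Foxa1 and Hhex (0.66). Foxa3 and Dbp had r = -0.69 (permutation p adjusted 0.0419) and rho = -0.62 (adjusted 0.0612). Cebpd and Foxa1 had r = -0.66 (permutation p adjusted 0.0462) and rho = -0.67 (adjusted 0.0564). Foxa3 and Hhex had r = -0.66 (permutation p adjusted 0.0462) and rho = -0.35 (adjusted 0.349). After the subtraction these 3 values of r were -0.42, -0.58 and -0.51, and within groups they were -0.57, -0.65 and -0.63. Among the positive pairs, Foxa3 and Cebpe had the highest correlation, with Pearson r = 0.83 (permutation p = 0.00017, adjusted over the 55 pairs 0.00935) and Spearman rho = 0.87 (permutation p = 4.0e-05, adjusted 0.0022). Leaving out the 2 samples furthest from the median of Foxa3 gave r = 0.77, and r was 0.78 within groups and 0.79 with the running median subtracted. These probes are numbers 1676 and 1678, and 0.219% of all pairs of probes with 1 gene symbol reached an r this high. For Cebpb and Cebpd r was 0.76 (permutation p = 0.00066, adjusted 0.0181) and rho 0.81 (permutation p = 0.00036, adjusted 0.00917), with r = 0.81 without the 2 samples furthest from the median. It was 0.69 within groups and 0.59 with the running median subtracted, and 0.689% of all pairs reached the first value. Hhex and Dbp had r = 0.62 (permutation p = 0.011, adjusted 0.0462) and rho = 0.54 (permutation p = 0.0386, adjusted 0.107), r = 0.53 without the 2 furthest samples, 0.50 within groups and 0.61 with the running median subtracted, and 3.43% of all pairs reached the first value. Cebpa and Cebpb had r = -0.18 (permutation p = 0.528, adjusted 0.66) and rho = -0.19 (permutation p = 0.506, adjusted 0.699). All pairs share the arrays and their normalization.

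**Figure D4:**
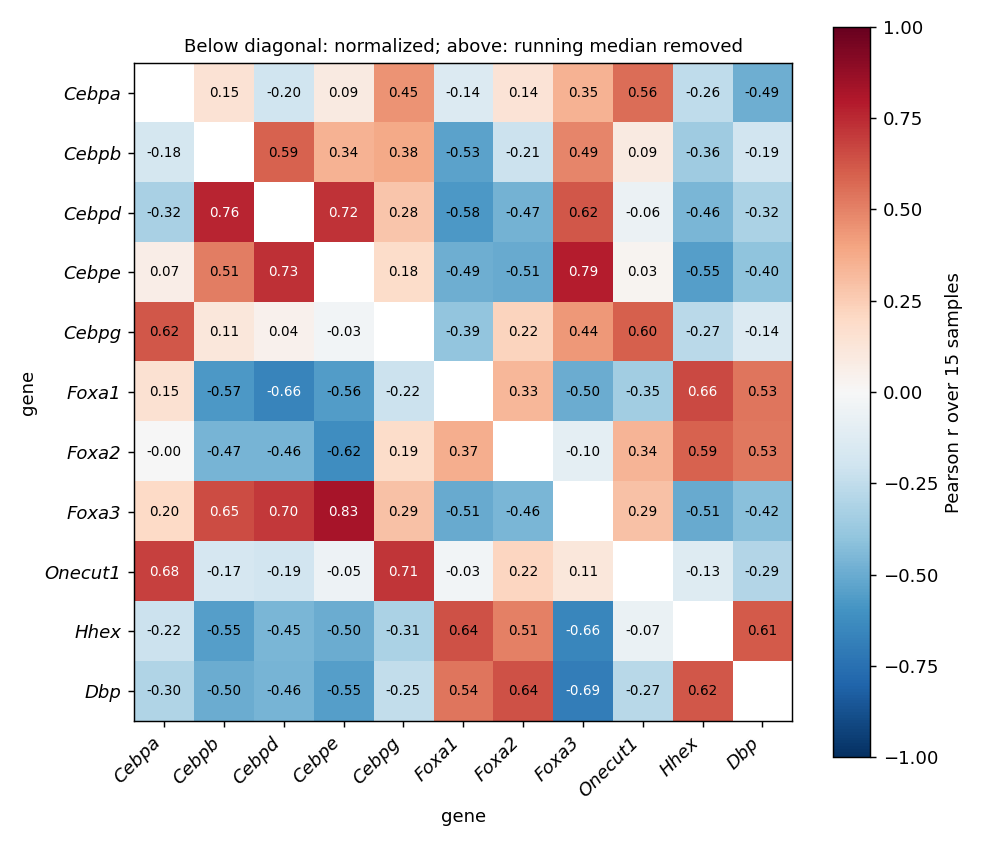
Pearson correlation over the 15 samples for each pair of the 11 members (rows and columns), below the diagonal on normalized values and above it after subtraction of the running median. Cebpb, Cebpd, Cebpe and Foxa3, whose probe numbers run from 1381 to 1678, are positively correlated with each other on both scales. Their r is 0.51 to 0.83 and 0.34 to 0.79, and 16.7% of all pairs of probes with 1 gene symbol reached the 0.34. Hhex and Dbp are correlated at 0.62 and 0.61.

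The genes most like Cebpb over the 15 samples, out of all with a single symbol, were Flt1 (a receptor of vascular endothelial growth factor) with r = 0.92, Fgb (the fibrinogen beta chain, an acute phase protein) with 0.91, Cr1l (a complement regulator) with 0.90, Aqp3 (a water and glycerol channel) with 0.90 and Ccnd2 (cyclin D2) with 0.89. They were picked for this likeness, so it carries no test. With the running median subtracted, Fgb was the closest of all, at r = 0.84, and Flt1 stood in place 12 at 0.75. Cebpd stood in place 73 on normalized values and 134 after the subtraction.

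Of 24 listed symbols of partners and inducers of C/EBP proteins, 17 were measured and 0 passed the adjusted threshold in any comparison. Between noncancerous and control liver 14 of 17 lay above 0, with a median of 0.66, and 11 of 17 with a median of 0.20 after the subtraction. Nfkb1, a subunit of NF-κB, differed by 1.52 (0.04 to 3.01; 1.16 after the subtraction) and Il6st, the signalling chain of the interleukin-6 receptor, by 1.11 (-0.19 to 2.41; 0.62 after it). Socs3, a feedback inhibitor of interleukin-6 signalling, differed by -1.21 (-2.25 to -0.18; -0.38 after the subtraction), and Il6 itself by -0.19 (-1.95 to 1.57; -0.66 after it). Between carcinoma and noncancerous liver 15 of the 17 lay below 0, with a median of -0.92 (-0.64 after the subtraction). Nfkb1 differed by -1.94 (-3.43 to -0.46; -1.60 after the subtraction) and Ddit3, a C/EBP family member that pairs with the others under stress, by -1.25 (-2.37 to -0.13; -0.89 after it). Between carcinoma and control liver the median was -0.25 (-0.38 after the subtraction) and 11 of 17 lay below 0.

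Of 24 other liver transcription factors 16 were measured, and 0 passed. Groups without overlap in carcinoma against noncancerous liver were found for 1.25% of all probes on the higher side and 1.46% on the lower side, and for 1.06% of all probes on the higher side against control liver. Hnf4a, the nuclear receptor that governs many hepatocyte genes, differed by -1.06 (-2.07 to -0.05) between noncancerous and control liver, and by -0.35 after the subtraction. It differed between carcinoma and noncancerous liver by 1.54 (0.53 to 2.55, limma adjusted p = 0.234), and by 0.97 after the subtraction. Nr0b2, a repressor of bile acid synthesis, was the 1 gene of this list with groups without overlap. It stood higher in carcinoma than in control liver by 1.64 (0.31 to 2.98; 1.88 after the subtraction) and than in noncancerous liver by 2.26 (0.93 to 3.59; 1.66 after it). Gata4, a factor of early liver development, differed by 1.09 (-0.24 to 2.43; 0.50 after the subtraction) between noncancerous and control liver. The list's medians were 0.01, 0.36 and 0.30 between noncancerous and control, carcinoma and control, and carcinoma and noncancerous liver, and -0.21, 0.33 and 0.54 after the subtraction.

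Of 30 acute phase genes 21 were measured, and 0 passed. The list mixes genes that rise in an acute phase response with genes that fall, such as Ttr. Its counts and medians therefore give no direction of that response. Between noncancerous and control liver, where Cebpb and Cebpd lay above 0, 9 of 21 did, with a median of -0.13, and 14 of 21 with a median of 0.21 after the subtraction. Fgb differed by 1.60 (-0.02 to 3.23; 1.16 after the subtraction) and Nos2, the inducible nitric oxide synthase, by 1.44 (-0.31 to 3.19; 1.06 after it). Ttr, the thyroid hormone carrier that falls in an acute phase response, differed by -1.52 (-3.15 to 0.10; -0.35 after the subtraction) and A2m, a major acute phase protein of the rat, by -0.98 (-2.23 to 0.27; 0.04 after it). Between carcinoma and control liver 16 of 21 lay above 0 with a median of 0.49 (0.90 after the subtraction), and Fgg, the fibrinogen gamma chain, and Itih3 were without overlap and higher, at 2.80 (1.29 to 4.31) and 1.23 (-0.02 to 2.49). Il1rn, the interleukin-1 receptor antagonist, was without overlap and lower, at -2.26 (-3.77 to -0.75). Ttr was among the 16 above 0, at 0.39 (-1.24 to 2.02).

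A further list held 45 symbols of hepatocyte genes taken to have promoter sites for C/EBP, FOXA or HNF1, which were not searched for here. Of these, 33 were measured, and 0 passed. Their medians were 0.22, 0.12 and -0.45 between noncancerous and control, carcinoma and control, and carcinoma and noncancerous liver, and -0.04, -0.0006 and -0.11 after the subtraction. Apoa1, the main protein of high-density lipoprotein, differed by 2.35 (0.83 to 3.87; 1.93 after the subtraction) between noncancerous and control liver. Slc10a1, the bile acid uptake carrier, was without overlap and higher there, at 1.35 (0.13 to 2.56; 0.95 after the subtraction). G6pc1, the catalytic subunit of glucose-6-phosphatase, differed by -1.50 (-3.13 to 0.13; -0.82 after the subtraction) in that comparison and by -2.05 (-3.68 to -0.43) between carcinoma and control liver. Cyp3a2, a steroid and drug hydroxylase, and Gys2, the liver glycogen synthase, were without overlap and lower in carcinoma than in control liver, at -2.34 (-3.90 to -0.79) and -2.06 (-3.66 to -0.46). Otc, an enzyme of the urea cycle, and Slco1a1, an organic anion uptake carrier, were without overlap and lower in carcinoma than in noncancerous liver, at -3.04 (-4.58 to -1.49) and -1.78 (-3.13 to -0.43). Both had stood above control in noncancerous liver, at 2.28 (0.73 to 3.82) and 1.91 (0.56 to 3.26).

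Of 21 symbols of clock and related basic leucine zipper genes 7 were measured beside Dbp, and 0 passed. Nr1d2, a repressor in the clock, differed by 2.04 (0.26 to 3.81) between carcinoma and control liver, where Dbp differed by -1.45. Per2, a core clock gene, differed by 0.93 (-0.33 to 2.18) and Clock, which activates Dbp, by -0.80 (-1.95 to 0.35) in that comparison. Between noncancerous and control liver the 7 lay between -0.28 (Nr1d2) and 0.38 (Bhlhe41), all with intervals that include 0 (-0.09 and 0.10 for these genes after the subtraction). Bhlhe41, a transcriptional repressor tied to the clock, was without overlap and lower in carcinoma than in noncancerous liver, at -1.32 (-2.47 to -0.18).

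Cell type markers are given for the same samples, as mean log2 ratios that can show no absence. The mean of 8 hepatocyte markers ranged from -1.64 to 0.17 in control, -2.03 to 1.74 in noncancerous and -0.33 to 1.42 in carcinoma samples. Between carcinoma and control liver 8 of 8 lay above 0 (median 0.996), beside 50.1% of all probes. Only Cps1, at 1.28 (0.20 to 2.35), had an unadjusted limma p under 0.05, and 0 were without overlap. Alb, Ttr and Serpina1, among others, are also in the acute phase and promoter-site lists, so these counts are not separate findings. In the promoter-site list 17 of 33 lay above 0 in this comparison. The mean of 3 macrophage markers ranged from -2.10 to 0.61 in control, -1.34 to -0.21 in noncancerous and -0.26 to 0.65 in carcinoma samples. The mean of 5 bile duct and progenitor markers ranged from -0.52 to 0.83, -0.76 to 0.13 and -1.50 to 0.25, and 4 of 5 lay below 0 between carcinoma and control liver. That of 8 lymphocyte markers ranged from -0.56 to 0.18, -0.44 to 0.51 and -0.91 to 0.55. The mean of 10 stellate cell markers ranged from -0.51 to 0.14, -0.26 to -0.06 and -0.22 to 0.46, that of 2 endothelial markers from -0.96 to 1.05, -0.57 to 0.60 and -1.45 to 0.25, and that of 3 adipocyte markers from -0.29 to 0.26, -0.18 to 1.204 and -0.9999 to 0.46. Cd28 and Pdgfra among them were without overlap and higher in noncancerous than in control liver, at 2.57 (0.45 to 4.68) and 1.77 (0.67 to 2.88). Krt18 was without overlap and lower there, at -1.12 (-2.31 to 0.07). In that comparison 6 of the 10 stellate cell markers lay above 0 and 4 below. Among the 4 were Vim at -1.37 (-2.47 to -0.27), Col3a1 at -1.34 (-2.43 to -0.24) and Col1a1 at -1.11 (-2.22 to -0.0076). Of the 8 lymphocyte markers, 4 lay above 0 there. Pdgfra was without overlap and lower in carcinoma than in noncancerous liver, at -1.29 (-2.40 to -0.18). The part of these cell types in the members' differences was not tested.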

How the data were processed

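The deposited table held a linear ratio for 3757 probes in 15 arrays. Each probe's median over the arrays was 1 in the table, so the authors' ratios were already centred per probe. No source used here names the array type, the dyes or any software of the authors. All 15 sample columns were used. Gene symbols came from the platform annotation, where 3440 probes had 1 symbol, and all 11 members matched RefSeq (GRCr8).

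Because the highest trimmed array mean was 1.49 times the lowest, ratios were quantile-normalized and put on the log2 scale. One linear model with group as its term (12 residual degrees of freedom) was fitted to all probes in limma 3.58.1 (R 4.3.3; lmFit, then eBayes with trend). Two-sided p-values were Benjamini-Hochberg adjusted over 3757 probes. Single members were also tested by exact two-sided permutation of the samples, and correlations by 100000 permutations. For a gene with several probes, the least variable within groups was taken. The fit was tested on simulated data.

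The members, lists and tests were chosen with earlier results of these data known. All members were named. From each list, genes with groups without overlap were named, with others from its extremes or chosen after their values were seen. Same-numbered samples correlated at -0.34 to 0.39 in their deviations from the group means (6 of 15 pairs over 0.1). Differently numbered samples of different groups correlated at -0.40 to 0.60, so these values cannot tell whether equal numbers mark pairs. The labels do not say that they do, and the numbers were not taken as pairs. Alternatives were other scalings, a pseudocount of 0.1, a floor, a filter, other variance models, the replicate block, the running median, and leaving out samples.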

Additional observations from a re-analysis of the deposited data

Results flagged for a closer look

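Of 33 groups of 5 member values, 2 held a sample far from the others, where chance gives about 5%. Foxa1 in noncancerous 1 stood at -2.46 on the log2 scale, from a deposited ratio of 0.01, the lower limit, and its gap to the next sample was 0.82 of the range of the group. Dbp in control 5 stood at 0.90, above the other control samples by 0.73 of their range.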

How the results depend on the processing

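No member passed the adjusted threshold under any alternative, where the smallest adjusted p was 0.194 (Cebpa, carcinoma against noncancerous liver). The count of probes past the threshold was 0 under every alternative, except between carcinoma and noncancerous liver, where leaving out 1 sample gave 0 to 2 (2 without noncancerous 5, neither of them a member). With the replicate block the count stayed at 0 in all 3 comparisons, with 370, 274 and 506 probes at an unadjusted p under 0.05. The block changed no call (Cebpb between noncancerous and control liver was 1.98, limma adjusted p = 0.416). Of the members' 918 values under alternatives, 885 kept their sign. Part of these could not change, so the tally is no measure of robustness. The replicate block, the filter, and the fits without trend or with only the groups compared return the main difference. So does leaving out a sample of the group not compared.

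Between noncancerous and control liver, subtracting the running median over 50 probes on either side gave Cebpg 0.21, Onecut1 0.26, Hhex 0.57, Dbp 0.0094 and Foxa2 0.52. Windows of 25 and 100 probes on either side, chosen after seeing the data, gave Cebpg 0.36 and 0.13, Onecut1 0.18 and 0.28, Hhex 0.56 and 0.56, Foxa2 0.41 and 0.61, and Dbp 0.068 and -0.13. Hhex was 0.0074 with array quality weights and 0.068 without control 1 and noncancerous 1 together, where Onecut1 was 0.38. Foxa1 between carcinoma and noncancerous liver was 0.54 on deposited ratios and 0.56 with arrays scaled to the same median. The cause was not tested.

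Leaving out 1 sample moved the difference between noncancerous and control liver from -0.50 to 0.12 for Onecut1, from -0.46 to 0.0282 for Hhex and from -0.66 to 0.19 for Cebpg. Between carcinoma and noncancerous liver it ran from -0.23 to 0.47 for Foxa3, -0.0536 to 0.59 for Cebpe, -0.041 to 0.80 for Cebpg and -0.84 to 0.0394 for Foxa1, and between carcinoma and control liver from -0.18 to 0.44 for Cebpg. Precision is limited by 5 arrays per group, and the interval of each difference, not its median half-width over all probes (1.27), bounds what that difference shows.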
